A study of Mus musculus with 2 samples.

Results

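Tubulin genes encode the subunits of microtubules, and the 10 genes described here are the alpha isotypes Tuba1a, Tuba1b and Tuba1c and the beta isotypes Tubb2a, Tubb2b, Tubb3, Tubb4a, Tubb4b, Tubb5 and Tubb6. They were listed by gene name, with no threshold on their values but with earlier results of these data known, and are 10 of the 19394 genes measured. The quantity followed is each isotype's share of the summed alpha or beta transcripts of the listed genes in a library. After panobinostat the shares of beta transcripts were smaller for Tubb5, Tubb4b and Tubb6 and greater for Tubb2b and Tubb2a. The Tubb4b difference was -7.68 percentage points over all cells and -1.33 among cells scored as G1 phase. Tubb3 and Tubb4a, which held 289 and 87 transcript counts in vehicle, held 4496 and 2648 in panobinostat.

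The cells were Pax2+ renal progenitors of 9-week-old C57Bl/6 mice, profiled as 2 droplet single-cell RNA-seq libraries, 1 for vehicle and 1 for panobinostat. All animals carried Pax2.rtTA;TetO.Cre with R26.mT/mG: the Pax2 promoter drives an inducible Cre, and cells in which Cre has acted, with their descendants, turn GFP-positive. Glomeruli from 2 mice grew out in culture for 5 days, and sorting kept the GFP-positive cells. After 16 h of starvation they received DMSO (vehicle) or 0.2 µM panobinostat, a drug that blocks histone deacetylases, for 48 h. The labels do not tie cells to mice, so each group is 1 sample, no test between treatments is possible, and what the drug did cannot be told apart from whatever else set the 2 libraries apart.

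Microtubules are built from dimers of 1 alpha and 1 beta tubulin, each of which comes from several genes. The isotypes are close in sequence and differ mainly in the acidic tail at the C-terminal end, which is exposed on the microtubule surface and bears most of the chemical modifications. Tubb5, Tubb4b and Tuba1b are found in most dividing cells. Tuba1a, Tubb2a and Tubb2b are prominent in developing brain, Tubb3 is used as a marker of neurons, Tubb4a is best known from neurons and oligodendrocytes, and Tubb6 is usually a minor isotype. In kidney epithelium microtubules form the spindle, the primary cilium and the tracks of vesicle transport.

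On the mouse genome (GRCm38.p6) the alpha genes form a small group, as do Tubb2a and Tubb2b, and the other genes lie apart. Tuba1b (chr15:98931425-98934565, minus strand), Tuba1a (chr15:98949837-98953703, minus strand) and Tuba1c (chr15:99029891-99038110, plus strand) are neighbours. Tubb2a (chr13:34074274-34078007) and Tubb2b (chr13:34126748-34130466) lie side by side on the minus strand. Tubb3 is at chr8:123411424-123422015 on the plus strand. On the minus strand are Tubb4a at chr17:57080066-57087782, Tubb5 at chr17:35833921-35838306 and Tubb4b at chr2:25222160-25224702.

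Promoter sequence from RefSeq (GRCm38.p6) is shown for 3 beta genes that differ in the patterns described below: Tubb4b and Tubb5 had greater levels in vehicle cells scored as S or G2/M, and Tubb3 did not and rose with panobinostat. Each is written 5′ to 3′ on the gene's own strand and stops at the base before the annotated gene start, so that no transcribed base is shown. Capitals mark matches on either strand: CCAAT, the box that the factor NF-Y is known to bind, and TTTGAA, a form of the CHR element known from promoters of cell cycle genes, in Tubb4b and Tubb5, and GGGCGG, the GC box, in Tubb3. The Tubb4b sequence is chr2:25224703-25224952, minus strand, the Tubb5 sequence is chr17:35838307-35838551, minus strand, and the Tubb3 sequence is chr8:123411303-123411423, plus strand.
Tubb4b: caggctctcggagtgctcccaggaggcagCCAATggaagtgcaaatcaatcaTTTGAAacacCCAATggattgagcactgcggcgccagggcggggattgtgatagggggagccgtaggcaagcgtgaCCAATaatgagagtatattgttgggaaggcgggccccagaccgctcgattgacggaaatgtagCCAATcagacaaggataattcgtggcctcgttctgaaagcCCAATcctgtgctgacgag
Tubb5: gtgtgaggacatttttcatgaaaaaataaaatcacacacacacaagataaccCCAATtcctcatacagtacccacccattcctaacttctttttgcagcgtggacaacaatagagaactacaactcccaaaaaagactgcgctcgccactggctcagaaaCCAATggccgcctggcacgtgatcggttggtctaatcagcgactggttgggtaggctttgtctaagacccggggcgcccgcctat
Tubb3: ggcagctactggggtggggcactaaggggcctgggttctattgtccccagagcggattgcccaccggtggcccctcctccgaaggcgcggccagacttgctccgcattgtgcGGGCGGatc

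The search covered the 250 bases before the RefSeq start on both strands, which for Tubb3 and Tubb5 extends past the printed part. Tubb4b held 5 CCAAT matches, a number reached by 0.213% of all 32841 promoter windows of that length. At least 1 CCAAT was found in 33.9% of all windows and at least 2, the number in Tubb5, in 10.1%. TTTGAA was found in Tubb4b alone among the members, against 16.0% of all windows, and 5.55% held this element with a CCAAT box. The GC box occurred in 32.7% of all windows, and at least 2 of them in 16.7%. The Tubb3 window held 2 GC boxes with 1 CCAAT box, and the Tuba1b and Tubb2a windows also held 2 GC boxes. Of the 8 members with a window, 5 held a CCAAT box and 5 held a GC box. The TATA box, searched as TATAAA, was found in Tubb2a alone among the members, against 12.4% of all windows. The other searched form of the CHR element, TTCGAA, was found in 0 members. These matches describe letters and do not show that a factor binds.

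Depth and cell state bear on every value that follows. In vehicle 2854 cells gave 90754967 unique molecular identifiers (UMIs, 1 per captured transcript), a median of 27923.5 per cell. In panobinostat 2281 cells gave 104188927 UMIs, a median of 42394 per cell. No cell barcode was present in both. By scored cell cycle phase, with lists that held no tubulin gene, 1033 vehicle cells were in G1, 843 in S and 978 in G2/M, against 2278, 3 and 0 panobinostat cells. Mki67, a proliferation marker, was at 132.5 UMIs per 1000000 (CPM) in vehicle and 1.68 CPM in panobinostat, and the DNA topoisomerase Top2a was at 257 and 6.15 CPM. All 8 parietal epithelial and progenitor markers were above 10 CPM in 1 library or both, and their summed level was 8894 CPM in vehicle and 4880.0 CPM in panobinostat. The keratins Krt8 (4587 and 1710 CPM) and Krt18 (3301 and 2295 CPM) made up most of both sums. Pax8 was nearly level, at 120.2 and 119.9 CPM, and Cd24a was at 646 and 587 CPM. Pax2, Prom1, Cldn1 and Vcam1 were at 40.4, 93.3, 91.9 and 14.7 CPM in vehicle and 24.9, 69.7, 68.1 and 5.04 CPM in panobinostat. The contractile genes Acta2 and Tagln were at 639 and 792 CPM in vehicle, and their list of 4 mesenchymal markers summed to 1431 and 73.4 CPM. Acta2 and Tagln made up most of both sums. Pdgfrb (0.0992 and 0.365 CPM) and Col1a1 (0.628 and 1.55 CPM), of the same list, went the other way, both below 10 CPM.

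Transcripts of the member genes together made up 0.501% of UMIs in vehicle and 0.302% in panobinostat. Unless stated otherwise, alpha sums and shares cover Tuba1a, Tuba1b and Tuba1c only. They leave out other alpha genes such as Tuba4a, which was at 253 CPM in vehicle and 154 CPM in panobinostat. That is above Tuba1c (155 and 134 CPM) in both libraries. Summed alpha tubulin was at 1483 CPM in vehicle and 907 CPM in panobinostat, a log2 ratio of -0.71 (95% interval -0.72 to -0.70). Summed beta tubulin was at 3527 and 2115 CPM, a log2 ratio of -0.74 (-0.75 to -0.73). The intervals here and below cover counting error only. Alpha and beta kept nearly the same proportion, with 0.421 alpha UMIs per beta UMI in vehicle and 0.429 in panobinostat. Because panobinostat cells held more UMIs, the level per cell differed less: alpha tubulin averaged 47.2 UMIs per cell in vehicle and 41.4 in panobinostat, and beta tubulin 112 and 96.6.

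Calls of higher or lower required a CPM ratio of 2-fold or more, a counting interval without equality, and 10 CPM or more in 1 library or both. This is a rule of size for 2 libraries and not a test. All 10 tubulins reached the floor, Tubb3 and Tubb4a only through panobinostat, which fixes the direction of a call for these 2. By this rule 2 were higher and 4 were lower, and 9.85% of all 8872 genes above that floor were called higher and 11.0% lower. The median log2 ratio was -0.41 over the 10 members and -0.07 over all genes past the floor. With TMM or DESeq2 scaling every log2 ratio moved by -0.12 or -0.13 and no member changed direction, while higher calls made up 37.5% or 36.9% of all calls over the genome in place of 47.3%. Counts of 3′ UMIs do not grow with transcript length, so CPM is compared between genes below.

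Among the alpha isotypes, Tuba1a was the most abundant in both libraries. It was at 862 CPM (78197 UMIs) in vehicle and 564 CPM (58804 UMIs) in panobinostat, a log2 ratio of -0.61 that did not reach 2-fold. Its share of alpha UMIs was 58.1% in vehicle and 62.3% in panobinostat. Tuba1b, the widely expressed alpha isotype, fell from 467 to 208 CPM, a log2 ratio of -1.17 (-1.19 to -1.14), and its share went from 31.5% to 22.9%. Tuba1c was at 155 and 134 CPM, and its share was 10.4% and 14.8%. In UMIs per cell Tuba1c stood at 4.92 in vehicle and 6.14 in panobinostat, the opposite order to its CPM. The isotypes with a greater share in panobinostat gained 8.56 percentage points of alpha UMIs in all.

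Among the beta isotypes, Tubb5 was first in both libraries. It fell from 1685 CPM (152948 UMIs) to 814 CPM (84815 UMIs), a log2 ratio of -1.05 (-1.06 to -1.04), and its share of beta UMIs from 47.8% to 38.5%. Tubb4b, the next beta isotype in both libraries, fell from 1107 to 501 CPM, a log2 ratio of -1.14 (-1.16 to -1.13), with shares of 31.4% and 23.7%. Tubb6, on chromosome 18, fell the furthest of the 10. It went from 299 CPM (27110 UMIs) to 46.1 CPM (4803 UMIs), a 6.48-fold lower level with a log2 ratio of -2.70 (-2.74 to -2.65), and from 8.47% to 2.18% of beta UMIs. Of the 8872 genes past the floor, 8723 had a higher ratio than Tubb6.

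Tubb2b and Tubb2a, the pair of neighbouring beta genes on chromosome 13, were at greater levels in panobinostat without reaching 2-fold. Tubb2b was at 309 CPM (28083 UMIs) in vehicle and 477 CPM (49670 UMIs) in panobinostat, a log2 ratio of 0.62 (0.60 to 0.64). Its share of beta UMIs was 8.77% and 22.5%, the greatest gain of any isotype at 13.8 points. Tubb2a was at 123 and 208 CPM, a log2 ratio of 0.76, with shares of 3.48% and 9.84%. Against the smaller beta total in panobinostat, these 2 isotypes moved more in share than in level.

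Tubb3 rose from 3.18 CPM (289 UMIs) in vehicle to 43.2 CPM (4496 UMIs) in panobinostat, 13.6-fold higher with a log2 ratio of 3.76 (3.59 to 3.94). Tubb4a rose from 0.959 CPM (87 UMIs) to 25.4 CPM (2648 UMIs), 26.5-fold higher with a log2 ratio of 4.73 (4.42 to 5.05). Of the 8872 genes past the floor, 98 had a higher ratio than Tubb3, and 55 a higher ratio than Tubb4a. Both genes passed the floor only through panobinostat, so a high rank was partly fixed by the floor. Both stayed minor isotypes: Tubb3 made up 0.0903% of beta UMIs in vehicle and 2.04% in panobinostat, and Tubb4a 0.0272% and 1.20%. The 4 beta isotypes with a greater share in panobinostat gained 23.3 points between them.

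Neuron markers were measured beside these 2 genes. All 8 had UMIs in both libraries, and their summed level was 1.41 CPM in vehicle and 52.2 CPM in panobinostat. The synaptic vesicle protein Syt1 (17 and 1593 UMIs) and the RNA-binding protein Elavl3 (5 and 1062 UMIs) passed the floor, only through panobinostat. The defining marker Rbfox3 had 2 and 25 UMIs. Summed leukocyte (4.73 and 67.7 CPM, mostly Cd68), podocyte (12.8 and 24.4), proximal tubule (9.64 and 14.5) and distal nephron (0.121 and 1.27) markers were also greater in panobinostat. Endothelial (9.04 and 3.14 CPM) and glial (1.28 and 1.11 CPM) sums were smaller, as were the progenitor and mesenchymal sums above. The part of these markers in the Tubb3 and Tubb4a levels was not tested.

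**Figure D1:**
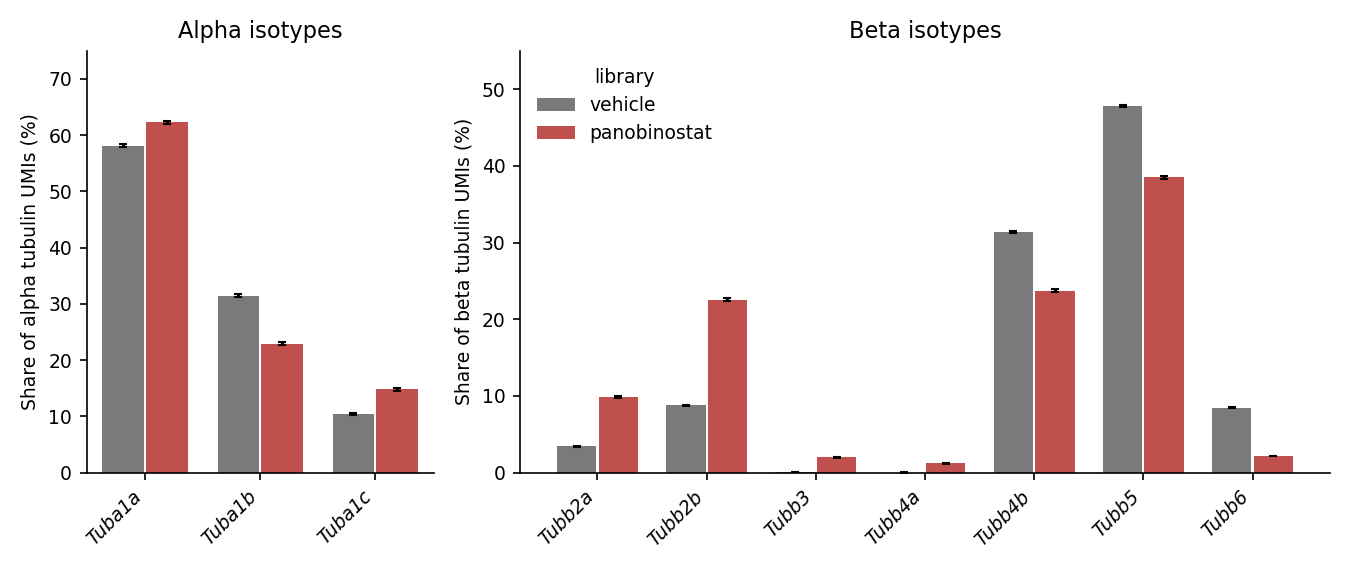
Share of summed alpha (left) and beta (right) tubulin UMIs held by each isotype, in percent, in the vehicle library (grey) and the panobinostat library (red), with exact 95% binomial intervals for counting error. Tubb2b goes from 8.77% to 22.5% of beta UMIs and Tubb6 from 8.47% to 2.18%, while Tubb5 stays first.

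Ordered by CPM in vehicle, the genes ran Tubb5, Tubb4b, Tuba1a, Tuba1b, Tubb2b, Tubb6, Tuba1c, Tubb2a, Tubb3 and Tubb4a. In panobinostat the order was Tubb5, Tuba1a, Tubb4b, Tubb2b, Tubb2a, Tuba1b, Tuba1c, Tubb6, Tubb3 and Tubb4a. The counting intervals of neighbours overlapped for 1 pair, Tubb2a and Tuba1b in panobinostat. Tubb6 in vehicle stood above Tuba1c and Tubb2a, and in panobinostat it stood just above Tubb3 (46.1 and 43.2 CPM).

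Some isotypes share sequence at the 3′ end, where these libraries read. Of the 50-base stretches in the last 500 bases of the transcript, 56.3% in Tuba1a, 63.6% in Tuba1b and 68.3% in Tuba1c also occurred in another gene, mostly another alpha member or the processed pseudogene Gm17383. For Tubb2a the share was 42.4%, mostly Tubb2b, and for Tubb4b 35.3%, all in genes that are not members. For Tubb2b, Tubb3, Tubb4a, Tubb5 and Tubb6 it was 0. The sources used here do not say how reads that match more than 1 gene were assigned, so the split among the alpha isotypes and the levels of Tubb2a and Tubb4b are uncertain.

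Within the vehicle library the isotypes differed in how they moved with the cell cycle. Tuba1b was at 216 CPM in G1 cells, 524 in S cells and 659 in G2/M cells, 3.05-fold higher in G2/M than in G1. Tubb4b was at 643, 1068 and 1567 CPM, 2.44-fold higher in G2/M. Tubb6 was at 192, 316 and 386 CPM, 2.01-fold higher. Tubb5 and Tuba1c were 1.61-fold and 1.72-fold higher in G2/M than in G1.

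Tuba1a, Tubb2a, Tubb2b and Tubb3 differed little across the phases. Tuba1a was at 865, 873 and 850.1 CPM in G1, S and G2/M cells. Tubb2b was at 331, 297 and 298 CPM, and Tubb2a at 130.1, 123 and 115 CPM. Tubb3 was at 3.21, 2.71 and 3.51 CPM, from 102, 67 and 120 UMIs. Tubb4a, from 38, 26 and 23 UMIs, was at 1.20, 1.05 and 0.672 CPM, a log2 ratio of G2/M over G1 of -0.83 (-1.64 to -0.05). Summed beta tubulin therefore went from 2567 CPM in G1 to 3551 in S and 4403 in G2/M, and summed alpha from 1201 to 1527 and 1715. With the sum, the make-up moved too: the Tuba1a share of alpha UMIs was 72.1% in G1 and 49.6% in G2/M, and the Tubb4b share of beta UMIs was 25.1% and 35.6%.

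**Figure D2:**
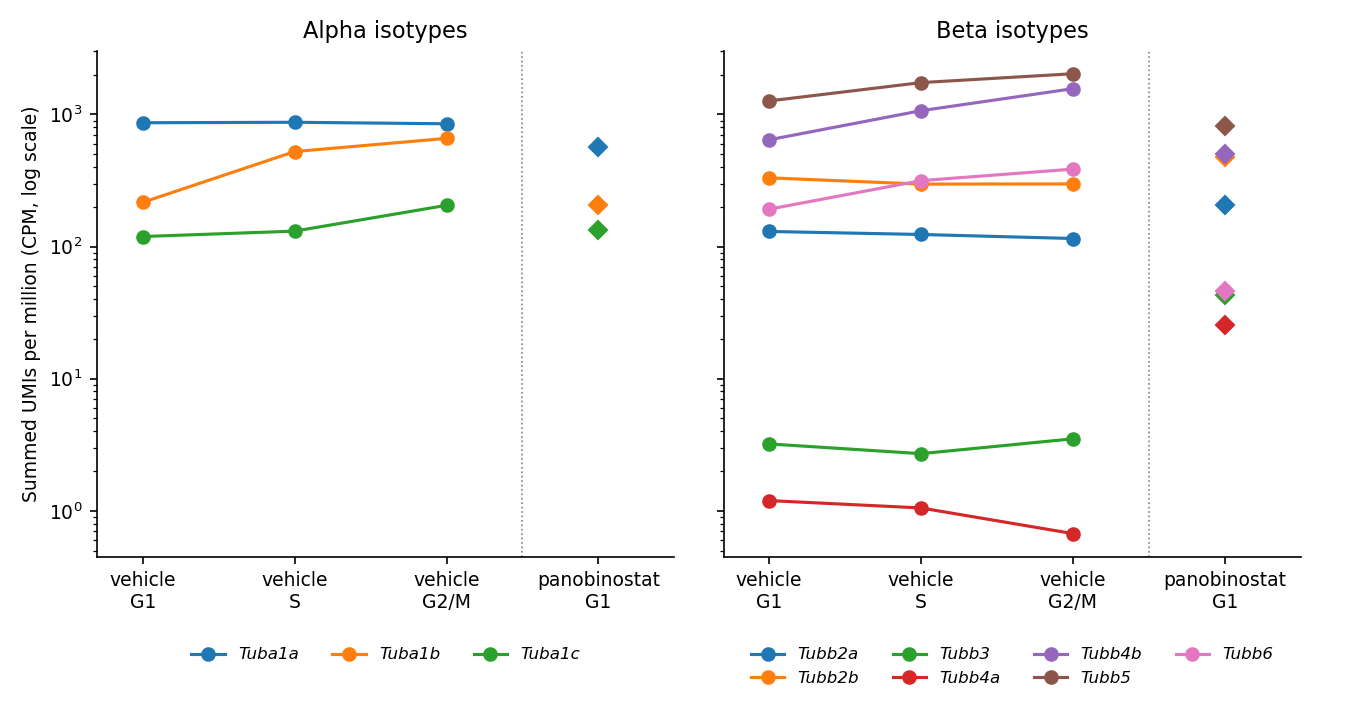
Summed level of each alpha (left) and beta (right) isotype in CPM on a log scale, for vehicle cells scored as G1, S and G2/M (circles joined by lines) and for panobinostat cells scored as G1 (diamonds), the only panobinostat phase with at least 50 cells. Tuba1b, Tubb4b and Tubb6 are at least 2-fold higher in vehicle G2/M than G1, while Tuba1a, Tubb2a and Tubb2b are nearly level, and Tubb3 and Tubb4a lie far lower in every vehicle phase than in panobinostat.

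Set against vehicle cells scored as G1 alone, the differences fell into 3 kinds. Tubb3 and Tubb4a were called as before, at log2 ratios of 3.75 (3.21 and 43.2 CPM) and 4.41 (1.20 and 25.4 CPM), against a background in G1 of 9.03% called higher and 7.07% lower over 8660 genes. Tubb6 was called lower, from 192 to 46.0 CPM, at a log2 ratio of -2.06. Tubb2b and Tubb2a were at 0.53 and 0.68, little different from all cells.

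The other calls did not hold in G1. Tuba1b was at 216 CPM in vehicle G1 cells and 208 in panobinostat G1 cells, a log2 ratio of -0.06 (-0.10 to -0.02). Tubb4b was at 643 and 502 CPM, a log2 ratio of -0.36, and Tubb5 at 1266 and 814 CPM, a log2 ratio of -0.64. Tuba1a kept its ratio, at -0.62 (865 and 565 CPM).

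For the alpha shares the choice of cells turned the direction. Among G1 cells the Tuba1a share of alpha UMIs was 72.1% in vehicle and 62.2% in panobinostat, -9.83 points against +4.18 points over all cells. The Tuba1b share was 18.0% and 22.9%, a gain of 4.93 points against a loss over all cells. Among the beta isotypes no share turned: Tubb5 had 49.3% and 38.5%, Tubb2b 12.9% and 22.6%, Tubb4b 25.1% and 23.7%, and Tubb6 7.48% and 2.18% in G1 cells. The phases are scores and not sorted cells. Mki67 was at 3.71 CPM in vehicle G1 cells and 1.68 CPM in panobinostat, and Top2a at 10.4 and 6.15 CPM. Other cycle genes were also higher in vehicle G1 cells: Ccnb1 (4.21 and 1.39 CPM), Cdk1 (16.2 and 13.0), Birc5 (9.06 and 4.76) and Ube2c (23.6 and 12.8). Prc1, a midzone protein of dividing cells, went the other way, at 9.12 and 11.9 CPM.

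**Figure D3:**
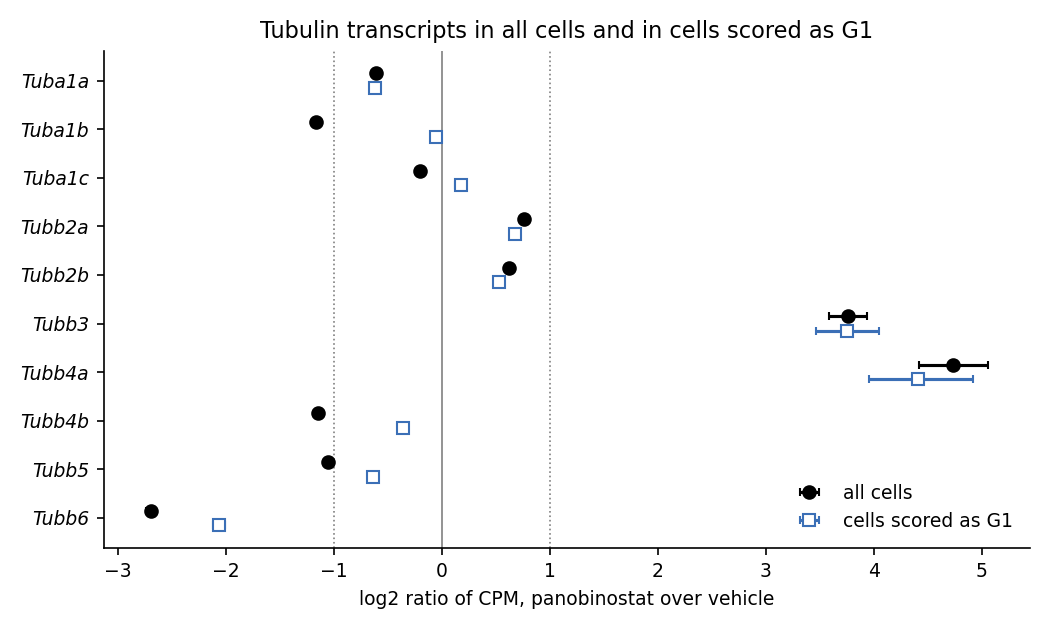
Log2 ratio of CPM, panobinostat over vehicle, for each tubulin gene over all cells (black circles) and over cells scored as G1 (blue squares), with exact 95% intervals for counting error; dotted lines mark 2-fold. Tubb3, Tubb4a and Tubb6 lie beyond 2-fold in both, while Tuba1b moves from -1.17 to -0.06 and Tubb4b from -1.14 to -0.36.

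To compare cells at equal depth, 18663 UMIs were drawn from each (thinning), and the 453 vehicle and 60 panobinostat cells with fewer were set aside. A thinned vehicle cell held a median of 67 beta and 27 alpha tubulin UMIs, and a thinned panobinostat cell 37 and 15. Tubb3 was seen in 4.16% of thinned vehicle cells (95% Clopper-Pearson interval 3.40% to 5.04%) and in 44.8% of thinned panobinostat cells (42.7% to 46.9%). Without thinning the shares were 5.47% and 65.9%. Tubb4a was seen in 1.75% and 33.0% of thinned cells, and in 2.73% and 56.0% without thinning. UMIs from free RNA were not measured here, since no cell type that should lack these genes was set apart.

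The cells with Tubb3 and with Tubb4a overlapped in part. At equal depth 60.6% of panobinostat cells held a UMI of at least 1 of them and 17.2% held both, and in vehicle 5.83% and 0.0833% did. Tubb6 went the other way, from 93.8% of cells in vehicle to 52.0% in panobinostat at equal depth (95.4% and 75.8% without thinning). The abundant isotypes Tuba1a, Tubb5 and Tubb4b were seen in at least 97.4% of thinned cells of either library.

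Tubb3 UMIs were unevenly spread over cells in both libraries. The 289 UMIs of vehicle came from 156 cells, 1 cell held 27, and the 29 richest cells held at least 50% of them. A cluster led by Aqp1, Folr1 and Havcr1, with 14.6% of vehicle cells, held 58.5% of them, at 14.2 CPM. In panobinostat the 4496 UMIs came from 1504 cells, with at most 35 in a cell, and the 304 richest cells held at least 50% of them. There cluster 1, with 50.2% of panobinostat cells, held 59.0%. Vehicle Tubb4a UMIs were scattered, 87 in 78 cells with at most 2 in a cell.

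The shift in make-up was seen in the middle of the distribution over cells. The median share of Tubb5 in a cell's beta UMIs was 47.6% in vehicle (10th to 90th percentile 34.5% to 61.9%) and 38.1% in panobinostat (23.6% to 53.6%). For Tubb2b it was 7.94% (1.49% to 19.4%) and 22.2% (8.33% to 36.4%), so the panobinostat median lay above the vehicle 90th percentile. For Tubb6 the median was 7.69% and 1.39%, and for Tubb2a 2.80% and 9.09%. For Tubb4b it was 30.5% and 22.5%.

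Most cells kept Tubb5 as their leading beta isotype, 80.0% in vehicle and 64.4% in panobinostat at equal depth. Tubb2b led in 0.375% and 13.0%, and Tubb4b in 16.3% and 15.3%. Tubb3 led in 0 of 2401 vehicle cells (upper bound 0.154%) and in 3 of 2221 panobinostat cells. Among alpha isotypes Tuba1a led in 73.7% and 80.6% of cells, and Tuba1b in 21.2% and 7.92%. These cells were of all phases, and among G1 cells the summed Tuba1a share was smaller in panobinostat (72.1% and 62.2%).

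**Figure D4:**
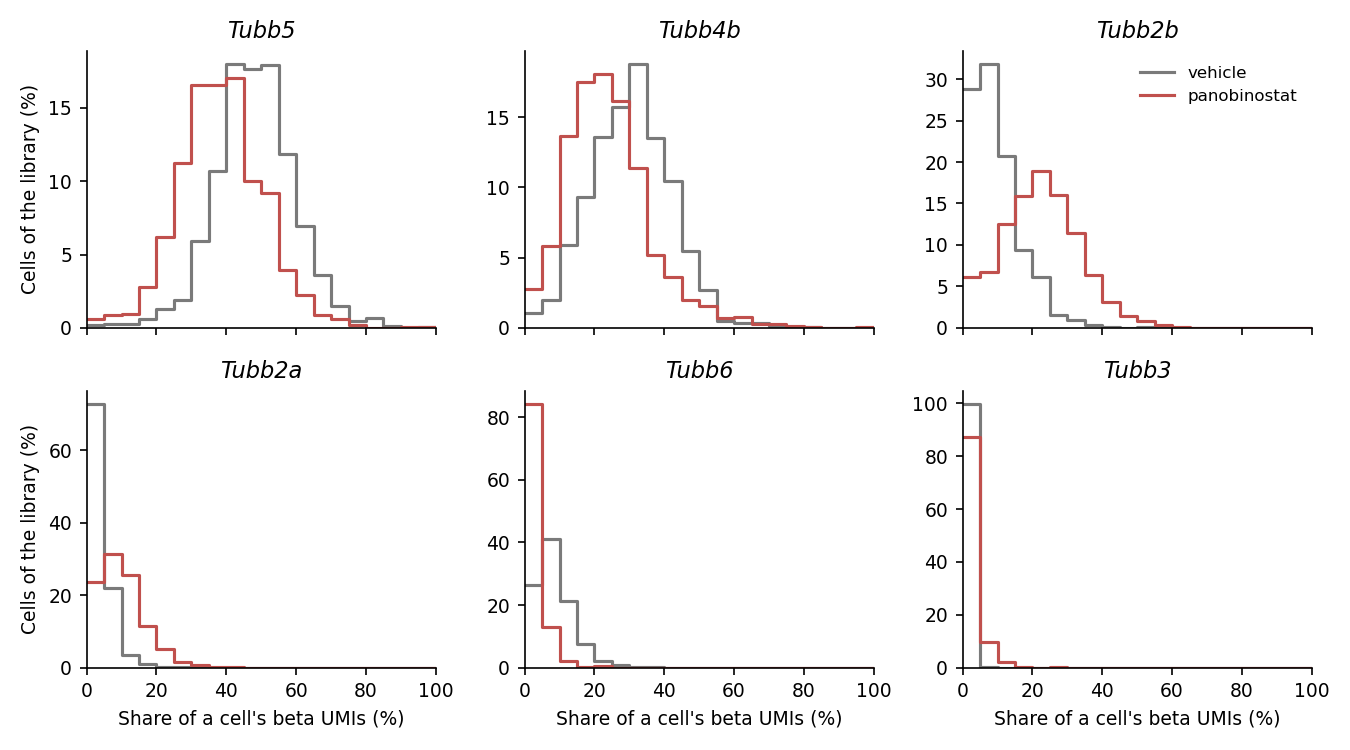
Distribution over thinned cells of the share of a cell's beta tubulin UMIs held by 6 beta isotypes, in bins of 5 percentage points, for vehicle (grey) and panobinostat (red); the vertical axes give percent of the library's thinned cells and differ between panels. The Tubb2b distribution lies to the right in panobinostat (median 22.2% against 7.94%) and that of Tubb6 to the left (1.39% against 7.69%).

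Cells were clustered without any tubulin gene, and the clusters fell almost wholly into 1 library or the other: 6 clusters held at least 50 vehicle cells and 4 others held at least 50 panobinostat cells. The clusters are left unnamed and are called by number and leading genes. The Tubb2b share of beta UMIs ranged from 6.90% to 13.8% over the vehicle clusters and from 15.6% to 25.6% over the panobinostat clusters, so the ranges did not overlap. Tubb5 ranged from 44.3% to 51.6% and from 21.5% to 40.2%, also without overlap. The ranges of Tubb2a (1.89% to 5.32% and 6.16% to 10.9%) and of Tubb6 (7.08% to 9.56% and 2.03% to 6.30%) were apart as well. Those of Tubb4b overlapped, at 21.9% to 36.6% and 21.4% to 47.3%. Since nearly every cluster belongs to 1 library, ranges that stay apart restate the difference between the libraries. How often this occurs over all genes was not counted.

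In vehicle the highest Tubb4b share was in cluster 5, at 36.6% of beta UMIs. That cluster is led by Top2a, Mki67 and Plac8, and all of its vehicle cells were scored as S or G2/M. It also had the lowest Tuba1a share (43.6%) and the highest Tuba1b share (43.8%) of alpha UMIs in vehicle. Tubb3 ranged from 0.744 to 14.2 CPM over vehicle clusters and from 31.0 to 49.3 CPM over panobinostat clusters, and Tubb4a from 0.505 to 1.27 and from 6.46 to 30.6 CPM.

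Cluster 10, with 59 panobinostat cells led by Pltp, 1700007K13Rik and Dcxr, differed from the other panobinostat clusters. Tubb4b made up 47.3% of its beta UMIs and Tubb5 21.5%, and it had the lowest summed alpha (370.1 CPM) and beta (1198 CPM) levels of the 4. In the other 3 panobinostat clusters summed beta was 1806 to 2392 CPM and summed alpha 846 to 950.3 CPM. Tubb6 had its highest panobinostat share there, 6.30% of beta UMIs.

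**Figure D5:**
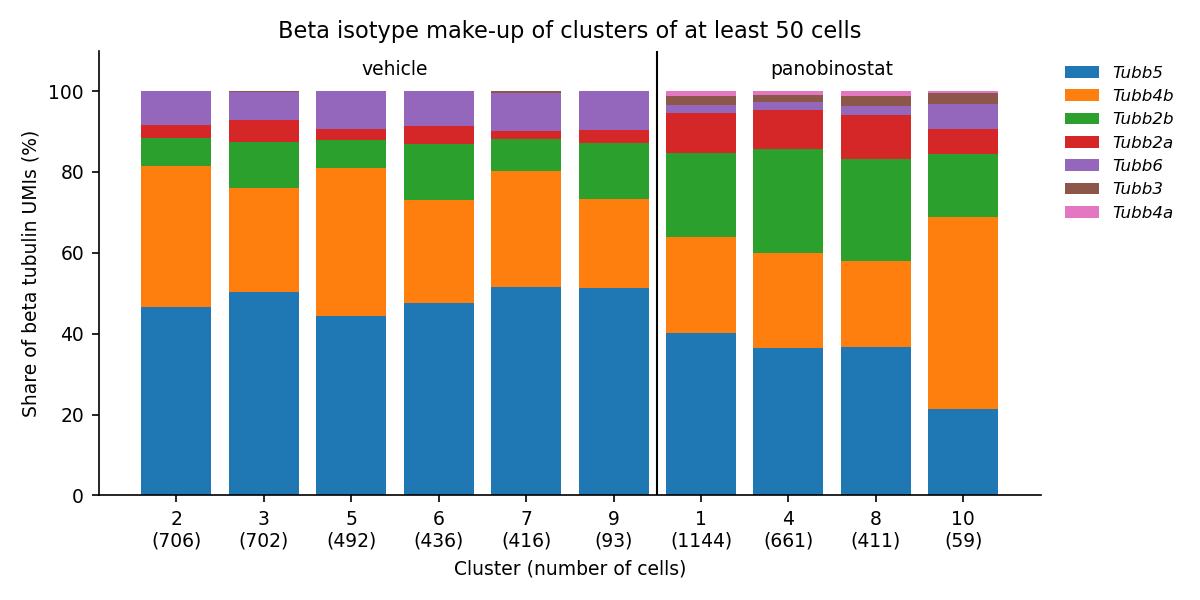
Share of summed beta tubulin UMIs held by each beta isotype, in percent, in every cluster with at least 50 cells of a library, with the number of cells under each cluster number; vehicle clusters are left of the line. The Tubb2b band is 15.6% to 25.6% in panobinostat clusters and 6.90% to 13.8% in vehicle clusters, and cluster 10 stands out by its Tubb4b band of 47.3%.

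Across thinned cells of a library, rank correlations describe which genes kept company; the cells share 1 library and 1 depth. In vehicle the genes most like Tubb4b, of 3008 compared, were the mitotic genes Birc5 (Spearman rho 0.61), Ube2c (0.59) and Mki67 (0.58). Those most like Tubb5 were Ube2c (0.48), Top2a (0.47) and Cdk1 (0.46). Between members, Tuba1b and Tubb4b stood at 0.66, Tubb4b and Tubb5 at 0.58, and Tuba1b and Tubb5 at 0.54 in vehicle cells, against 0.34, 0.48 and 0.34 in panobinostat cells. Most pairs of members had a higher rho in panobinostat than in vehicle, and fewer had a lower rho. Higher in panobinostat were, for example, Tuba1a with Tuba1b (0.10 and 0.48), Tuba1a with Tubb5 (0.39 and 0.57) and Tubb2b with Tubb5 (0.22 and 0.48). In panobinostat the genes most like Tubb3, of 2887, were the small heat shock protein Hspb1 (0.24), the filament protein Vim (0.23) and the protease inhibitor Timp3 (0.22), values too low in such sparse counts to be read as a relation.

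The other genes of the tubulin pathway were taken from lists, described by counts against the same background of 9.85% higher and 11.0% lower. Of 8 other tubulin genes with UMIs, 3 passed the floor and 0 were called. The alpha isotype Tuba4a was at 253 and 154 CPM (log2 ratio -0.71), Tubg1, the gamma tubulin of nucleating complexes, at 67.3 and 43.3 CPM (-0.64), and Tuba8 at 10.2 and 5.17 CPM (-0.97). Among G1 cells Tuba4a stood at -0.35, Tubg1 at 0.21, a turn in direction, and Tuba8 at -0.90.

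Folding and autoregulation genes cover the chaperonin CCT and prefoldin, which fold new tubulin, the cofactors that assemble the dimer, and Ttc5, which recognises new tubulin chains when free dimer is in excess and triggers decay of their transcripts. All 21 with a row passed the floor, 0 were higher and 1 was lower, with a median log2 ratio of -0.09. The chaperonin subunit Cct3 fell from 423 to 201 CPM (log2 ratio -1.07), and was at -0.97 among G1 cells. Cct7 was at 458 and 286 CPM (-0.68), the cofactor-like Tbcel at 15.3 and 25.6 CPM (0.74), and Ttc5 at 32.5 and 42.2 CPM (0.38).

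Of the enzymes that modify tubulin, 9 of 23 passed the floor, 1 was higher and 0 were lower, and their median was 0.41. Ttll1, part of a polyglutamylase that adds glutamates to the tails, rose from 15.3 to 33.5 CPM (log2 ratio 1.13), and stood at 0.93 among G1 cells. Sirt2, an NAD-dependent tubulin deacetylase, was at 50.1 and 88.7 CPM (0.82). Hdac6, the other main tubulin deacetylase, was at 19.6 and 25.9 CPM (0.40), and Atat1, the tubulin acetyltransferase, at 14.8 and 25.5 CPM (0.79). Sirt2, Hdac6 and Atat1 stood at 0.71, 0.42 and 0.34 among G1 cells.

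Microtubule-associated proteins held the largest ratio of the 5 lists among genes past the floor. Of 19 past the floor 6 were higher and 3 were lower, with a median of -0.03. Map1a, a neuronal microtubule stabiliser, rose from 0.452 CPM (41 UMIs) to 28.8 CPM (3004 UMIs), a log2 ratio of 6.00 (5.55 to 6.48). Map2, known from dendrites, rose from 3.65 to 70.6 CPM (4.27), and Mapt, which encodes tau, from 2.26 to 29.6 CPM (3.71). Map7d2 (2.88), Dclk1 (3.01) and Map1lc3a (1.18) were the other 3 called higher, and stood at 2.60, 2.70 and 0.68 among G1 cells, where Map1lc3a did not reach 2-fold. Of these 6, Map1a, Map2, Mapt and Dclk1 were below 10 CPM in vehicle, as was Map7d2, so that only a higher call was possible for them. Map1b and Map6, also of this list, were called neither way. Map1b was at 217 and 203 CPM (-0.09, and -0.37 among G1 cells) and Map6 at 27.1 and 27.5 CPM (0.02).

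The 3 lower genes of that list, named after their values were seen, act in the spindle. Prc1 fell from 126 to 11.9 CPM (log2 ratio -3.40), Tpx2 from 143 to 32.3 CPM (-2.15) and Numa1 from 90.2 to 34.6 CPM (-1.38). Among cells scored as G1 they stood at 0.38, -0.34 and -0.99. Map1a, Map2 and Mapt stood at 6.26, 5.43 and 3.63 among G1 cells.

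Of the end-binding and severing genes 12 of 15 passed the floor, with 1 higher and 1 lower. Mapre3, an end-binding protein prominent in neurons, rose from 16.4 to 37.8 CPM (log2 ratio 1.20), and was at 0.81 among G1 cells. Fignl1, a relative of the severing enzyme fidgetin, fell from 29.6 to 2.66 CPM (-3.47), and was at -0.24 among G1 cells. Mapre2 was at 17.6 and 26.5 CPM (0.59).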

How the data were processed

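The deposited matrix holds raw UMI counts per gene and cell. Per the labels' protocols, 10x Genomics 3′ libraries were sequenced on an Illumina NextSeq500, and the submitters' processing notes name Cell Ranger 3.0.1 and build mm10. Cells were assigned to libraries by the mark in each barcode, with the control mark read as vehicle. No cell had under 1798 genes or over 9.98% mitochondrial UMIs as deposited, and no further filter was applied. No doublet caller was run, so doublets may remain.

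Counts were summed per library and scaled to 1000000 UMIs (CPM). Ratios have exact conditional binomial 95% intervals, CPM has exact Poisson intervals and shares have Clopper-Pearson intervals, all for counting error only. No p-value was computed, since each treatment is 1 library and cells are not replicates. For shares of cells, each was thinned to 18663 UMIs (the 10th percentile of totals per cell). Phases were scored with scanpy 1.11.5 from 43 S and 53 G2/M genes. Clusters used 2000 variable genes without tubulins, 30 principal components, 15 neighbours and leidenalg 0.10.2 at resolution 0.5, and groups under 50 cells were left out. TMM factors came from edgeR 4.0.16 and size factors from DESeq2 1.42.0. The code was tested on simulated data.

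The members and lists were chosen with earlier results of these data known. All 10 members are named. From each list the text names the 3 genes with the largest absolute log2 ratio past 10 CPM, with Ttc5, Hdac6 and Atat1 always. The other 6 called genes of the microtubule-associated list (Map7d2, Dclk1, Map1lc3a, Prc1, Tpx2 and Numa1) were named outside this rule, after their values were seen. Map1b and Map6 of that list, not called, were named in the same way. For Tubb3, Tubb4b and Tubb5 it names the 3 genes with the highest Spearman rho among named genes of at least 50 CPM, leaving out the members and mitochondrial and ribosomal protein genes. Gene positions are from GENCODE and promoters from RefSeq, for 8 of the 10 members. Alternatives were other choices of cells, thinning, a mean over cells, other scalings, floors, folds and groupings of isotypes.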

Additional observations from a re-analysis of the deposited data

How the results depend on the processing

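Limiting both libraries to cells scored as G1, or to cells without a UMI of Mki67 or Top2a (chosen after seeing the data), left 17 of the 20 ratios and share differences of the members in their direction. In this order, the alpha points gained were 9.83 and 9.64, the beta points 17.5 and 17.2, the summed alpha log2 ratio -0.40 and -0.39, the summed beta log2 ratio -0.28 and -0.26, and the calls 3 and 3. Reversed were the Tuba1a share difference (-9.83 and -9.64 points), the Tuba1b share difference (4.93 and 4.74 points) and the Tuba1c log2 ratio (0.17 and 0.19). The Tubb4b share difference was -1.33 and -0.36 points, against -7.68 over all cells. The cause was not tested. A mean over cells gave 7.23 alpha and 21.9 beta points and summed log2 ratios of -0.69 and -0.70. TMM gave -0.83 for alpha and -0.85 for beta, and DESeq2 size factors -0.84 and -0.86. Counting every alpha tubulin gene gave 7.36 alpha points, and Tuba1b with Tuba1c as 1 isotype 4.18. Thinning before summing gave -0.73 for beta, and leaving out the 5% of cells with the most UMIs, chosen after seeing the data, gave -0.72 and 23.5 beta points. A floor of 50 CPM left 4 calls, 0 of them higher, since Tubb3 and Tubb4a lay below that floor in both libraries. Over all 3657 genes past that floor 295 were higher and 369 lower. A 1.5-fold rule gave 9 calls, 4 higher and 5 lower, against 1708 higher and 2059 lower over all 8872 genes. No paired analysis was possible because each treatment has 1 library. Depth limits Tubb3 and Tubb4a in vehicle, with 289 and 87 UMIs.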
